A study of Rattus norvegicus with 36 samples.

Results

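A set of 5 interneuron genes was followed over 2 brain regions and 2 risk preferences of the rat: the peptide genes Sst, Npy, Vip and Cck, and the calcium-binding protein gene Pvalb. They were chosen by name and by Ensembl identifier, as 5 of the 32623 identifiers in each count file: ENSRNOG00000001837 for Sst, ENSRNOG00000009768 for Npy, ENSRNOG00000006471 for Pvalb, ENSRNOG00000018808 for Vip and ENSRNOG00000011321 for Cck. The files do not pair identifiers with symbols, and 0 of the 32623 matched the gene table used here, so each name rests on this list of pairs. Of the 5 identifiers, 4 held counts in all 36 libraries.

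The rats were Sprague Dawley animals trained in the rat gambling task, in which an animal chooses among options that differ in reward and punishment, and were labelled risk-averse or risk-seeking. RNA came from dissected tissue of the medial prefrontal cortex (PFC) and of the nucleus accumbens (NAc), which belongs to the ventral striatum. The 36 libraries formed 4 groups of 9: risk-averse PFC, risk-seeking PFC, risk-averse NAc and risk-seeking NAc. They came from 9 risk-averse and 10 risk-seeking rats, of which 17 gave both regions. The libraries of a group were separate rats by their titles. Every group had been trained, and no untrained group is among the samples. Age and sex are not stated in the labels used here. Gene counts summed to 18436025 to 34761269 per library.

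Cortical inhibition is shared among classes of GABA neurons that are told apart by these genes. Parvalbumin cells fire fast and contact the cell bodies of principal neurons, somatostatin cells contact their dendrites, and cells with vasoactive intestinal peptide (VIP) mainly inhibit other interneurons, the somatostatin cells above all. In the striatum, interneurons are a minority among GABAergic spiny projection neurons. There somatostatin marks cells that also make neuropeptide Y, parvalbumin marks fast-spiking cells, and VIP neurons are known mostly from cortex. Cholecystokinin, the product of Cck, is found in a class of basket cells and in many cortical pyramidal neurons.

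The data went against 2 of the 5 names. ENSRNOG00000009768, paired with Npy, had a count of 0 in each of the 36 libraries. Over their 980594004 gene counts that allows at most 0.00306 CPM (gene counts scaled to a common library total), a limit that covers counting error only. Neuropeptide Y is a known product of both regions, and 6713 identifiers in these files were at 0 throughout. ENSRNOG00000011321, paired with Cck, averaged 8.73 ± 1.61 CPM in PFC (SD, n = 18), whereas Cck is known as an abundant cortical transcript. Both are therefore called by their identifiers below, and no value is given for Npy or Cck. Defining markers of the tissues, other cell types and the 16 gene lists drawn up for interneurons and their partners were not analysed here, because no symbols could be attached.

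Sst and Vip were the members called for preference in PFC, in fits without a read share, as described below. Both genes are known to respond to cyclic AMP, and the sequence around their start sites is shown for that reason. A part of cyclic AMP in the preference differences was not tested. RefSeq promoter entries of build GRCr8, each holding 250 bases before and 50 after a start, were matched by symbol for 4 of the 5 names. The cyclic AMP response element TGACGTCA, its core TGACG and the box TATAAA were searched on both strands. The full element lies within 2 overlapping copies of the core. Capitals mark the element or its core in the 120 bases shown for each gene, at chr11:90461438-90461557 (+) for Sst and chr1:44470360-44470479 (+) for Vip.
Sst: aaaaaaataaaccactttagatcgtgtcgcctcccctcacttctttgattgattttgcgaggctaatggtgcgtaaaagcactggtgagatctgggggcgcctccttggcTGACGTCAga
Vip: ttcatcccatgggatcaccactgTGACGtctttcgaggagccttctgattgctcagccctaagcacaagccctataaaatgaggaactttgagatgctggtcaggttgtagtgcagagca

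The Sst window held the full element, beginning at base 3 after the start that the table uses. This element of Sst is known as lying ahead of the start, so the table's start may lie upstream of the one in use, and the position is given only as the table has it. That element was found in 612 of 33469 promoter entries, which is 1.83%. Vip held the core alone, at -97 from its start, and Pvalb held the core at -241. Of all entries 21.2% held the core. Vip also held TATAAA at -175, -165 and -48, a box found in 14.2% of entries. These are matches of letters in a window and not mapped sites, and the sequences carry no measurement of the study.

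The regional difference was graded among the members: slight for Sst, several-fold for Pvalb and nearly complete for Vip. Levels are given in CPM scaled by the trimmed mean of M-values (TMM), and are compared between libraries, not between genes. In PFC, Vip ranged from 42.2 to 90.6 CPM with a median of 66.6. In NAc it ranged from 0.648 to 4.10 CPM with a median of 2.06, on 20 to 135 counts per library. No NAc library came near the lowest PFC library, and the NAc mean was 3.46% of the PFC mean. With edgeR's quasi-likelihood test and Benjamini-Hochberg adjustment over all genes, Vip was higher in PFC by 4.85 ± 0.15 (log2 fold change ± SE, adjusted p = 3.2e-26), which is 28.9-fold. Only 26 of the 15470 genes tested had a higher log2 fold change toward PFC.

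Pvalb also separated the regions without overlap. Its CPM ran from 42.8 to 72.7 in PFC, with a median of 54.1, and from 7.45 to 23.6 in NAc, with a median of 12.1. The difference was 2.10 ± 0.11 on the log2 scale, or 4.28-fold (edgeR adjusted p = 1.28e-19). The spread among rats was wider in NAc, where the coefficient of variation was 34.6% against 15.5% in PFC. Counting error alone would give 5.59% and 2.70%.

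For Sst the regions overlapped. Its CPM ran from 189 to 360 in PFC, with a median of 268, and from 157 to 268 in NAc, with a median of 192. Of the 18 PFC libraries, 9 lay above every NAc library. The difference was 0.43 ± 0.06 on the log2 scale, or 1.35-fold (edgeR adjusted p = 1.71e-07). ENSRNOG00000011321 was at 6.24 to 12.1 CPM in PFC and at 4.89 to 9.91 CPM in NAc. The ranges overlapped, with 4 of 18 PFC libraries above every NAc library, and the difference was 0.30 ± 0.08 (edgeR adjusted p = 0.0013).

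All 4 measured members were thus called higher in PFC, in a comparison that called 77.5% of all genes tested and called 38.2% higher in PFC. The bare calls of Sst and ENSRNOG00000011321 are common ones: 39.4% and 52.3% of genes had a larger absolute log2 fold change. Pvalb and Vip were also past a 2-fold difference, as were 7.54% of genes in that direction. The share of all genes without overlap between the regions was not counted. These region fits took the 2 libraries of a rat as independent. With the rat as a replicate block, the edgeR adjusted p was 3.6e-15 for Vip and 1.9e-11 for Pvalb. It was 1.1e-06 for Sst and 0.002 for ENSRNOG00000011321. Since these are bulk tissues, fewer cells of a type and less RNA per cell cannot be told apart in any of these values.

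**Figure D1:**
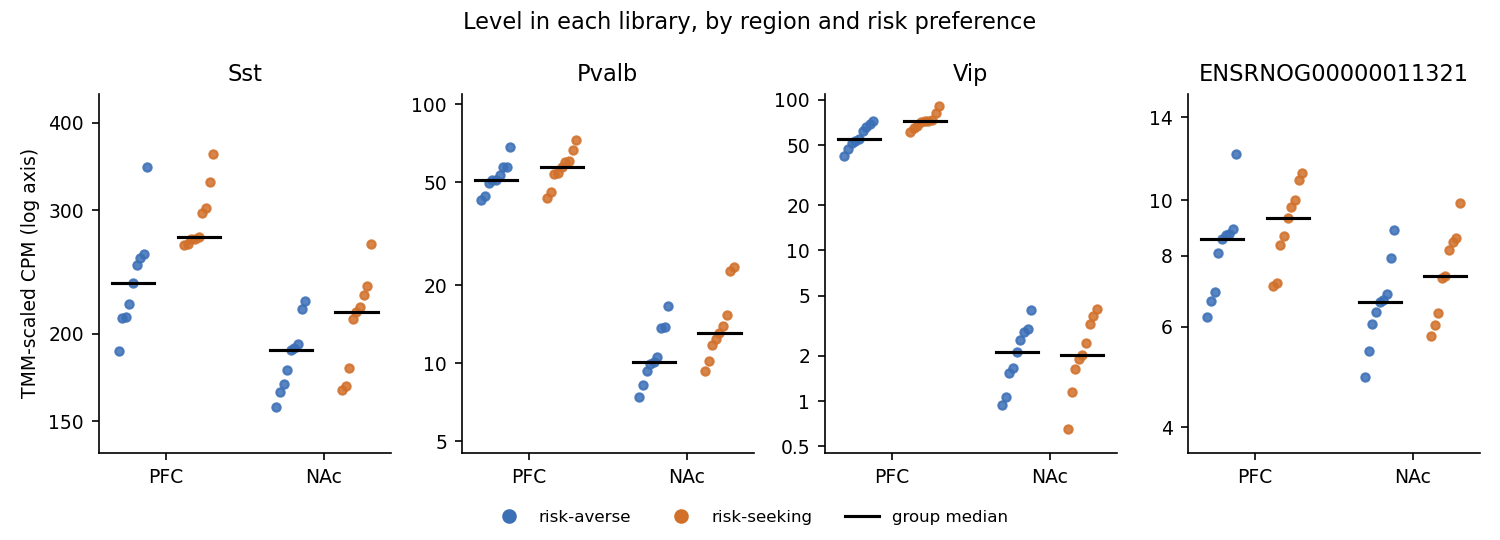
TMM-scaled CPM (log axis) of Sst, Pvalb, Vip and ENSRNOG00000011321 in each of the 36 libraries, grouped by region and coloured by preference, with a black line at each group's median. Vip and Pvalb leave a gap between PFC and NAc, whereas the regions overlap for Sst and ENSRNOG00000011321, and risk-averse rat BR2 stands above its group for Sst in PFC.

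The 17 rats with both regions gave the same order. Sst, Pvalb and Vip were each higher in PFC than in NAc in 17 of 17 rats. A two-sided exact sign-flip permutation test gave p = 1.526e-05 for each, the smallest that 17 rats allow. How many of all genes were higher in PFC in 17 of 17 rats was not counted, and 38.2% of genes tested were called higher there. Within a rat, the log2 difference of Sst had a median of 0.37 and reached from 0.09 in rat BR9 to 1.12 in rat R1. That of Pvalb had a median of 2.35, with its lowest values of 0.89 in rat B9 and 1.01 in rat R2. These 2 risk-seeking rats had the highest Pvalb in NAc, 23.6 and 22.7 CPM, and low values in PFC, 43.6 and 45.8 CPM. That of Vip reached from 3.84 in rat B3 to 6.97 in rat R1, which had both the highest Vip of all PFC libraries and the lowest of all NAc libraries. ENSRNOG00000011321 was higher in PFC in 14 of 17 rats (exact p = 0.00433), and in rat B5 it was lower by 0.48 on the log2 scale, at 7.08 CPM in its PFC library against 9.91 CPM in its NAc library.

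**Figure D2:**
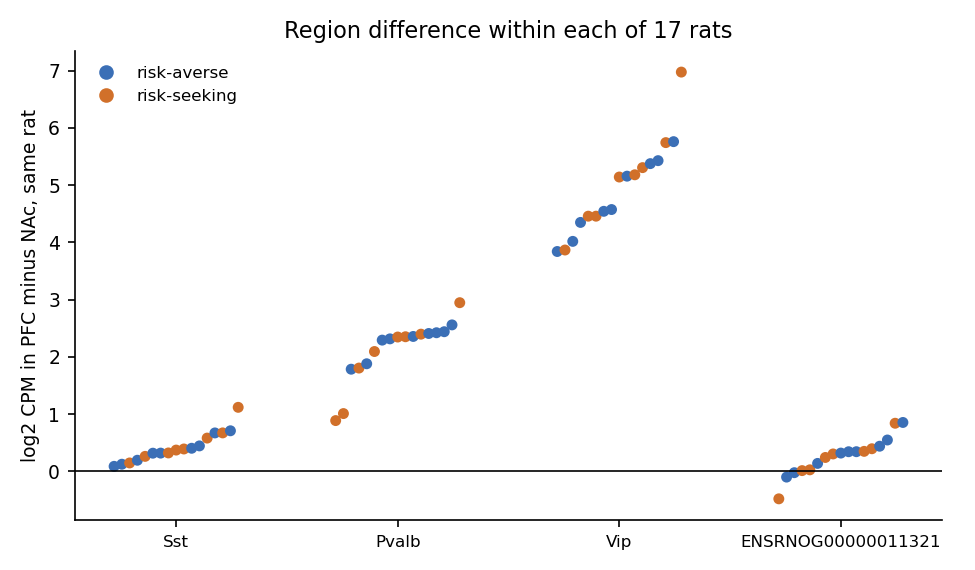
Difference in log2 CPM between the PFC and the NAc library of each of 17 rats (y axis), sorted within each gene and coloured by preference. Every point of Sst, Pvalb and Vip is above 0, and 3 points of ENSRNOG00000011321 are below it.

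A rat with a high level of a member in one region did not have a detectably high level in the other. With the preference means removed, the correlation between PFC and NAc over 17 rats was Pearson r = 0.20 for Sst (permutation p = 0.437), -0.19 for Pvalb (p = 0.456), -0.06 for Vip (p = 0.814) and 0.14 for ENSRNOG00000011321 (p = 0.59). Spearman's rho lay between -0.12 and 0.22, and each of the 4 relations had an adjusted p of at least 0.787. Without the 2 rats farthest from the PFC median, r was 0.35 for Sst, -0.18 for Pvalb, -0.07 for Vip and 0.20 for ENSRNOG00000011321.

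In PFC, Sst and Vip were higher in risk-seeking than in risk-averse rats, by 1.21-fold and 1.253-fold. Vip was at 42.2 to 72.0 CPM in the risk-averse group, with a median of 55.2, and at 60.8 to 90.6 CPM in the risk-seeking group, with a median of 71.8. The groups overlapped, but 9 of 9 risk-seeking libraries were above the risk-averse median and 5 of 9 risk-averse libraries were below every risk-seeking one. The log2 fold change was 0.33 ± 0.09, with a 95% interval of 0.14 to 0.51 (edgeR adjusted p = 0.0158). Sst was at 189 to 345 CPM in the risk-averse group, with a median of 236, and at 267 to 360 CPM in the risk-seeking group, with a median of 275. Of the risk-averse libraries 8 of 9 were below every risk-seeking one, and the exception was rat BR2 at 345 CPM. The log2 fold change was 0.27 ± 0.09, with a 95% interval of 0.09 to 0.45 (edgeR adjusted p = 0.0298). How many of all genes separated the preference groups as far as Sst or Vip was not counted, so these overlap counts do not single them out.

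The other measured members did not pass in PFC. Pvalb was at 42.8 to 68.3 CPM in risk-averse rats, with a median of 50.8, and at 43.6 to 72.7 CPM in risk-seeking rats, with a median of 57.4. These ranges nearly coincided, and the log2 fold change was 0.11 ± 0.09, with a 95% interval of -0.08 to 0.30 (edgeR adjusted p = 0.418). ENSRNOG00000011321 had group means of 8.32 ± 1.73 and 9.15 ± 1.47 CPM (SD, n = 9 each) and a log2 fold change of 0.13 ± 0.11 (edgeR adjusted p = 0.432). Without single libraries that of Pvalb ranged from 0.06 (without rat N3) to 0.16, and that of ENSRNOG00000011321 from 0.08 (without rat R9) to 0.21 (without rat BR9), and none passed.

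The count of 2 called members of 4 measured has to be read against a wide background. Preference was called for 23.3% of the 15128 genes tested in PFC, and 11.8% were called higher in risk-seeking rats. Among the more abundant 50% of genes, the share called higher was 17.8%. A larger absolute log2 fold change than that of Sst was found for 16.1% of genes, and than that of Vip for 9.71%. The rats' titles carry code letters, whose meaning the labels do not give. Within these, Vip in PFC was higher in risk-seeking rats in 4 of 4 sets and Sst in 3 of 4. Pvalb, which was not called, was also higher in 3 of 4, and ENSRNOG00000011321 in 2 of 4. Each set held only 2 or 3 rats of each preference. In the set that holds rat BR2, the difference of Sst was -0.08 on the log2 scale. The share of all genes that were higher in as many sets was not counted.

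The fractions of reads that the counting step left out differed with preference in PFC. In NAc the ambiguous share did, and the other shares missed the threshold after adjustment. In PFC, risk-seeking libraries had an unassigned share, of reads overlapping no annotated gene, of 23.29% ± 0.666 against 25.01% ± 1.98 in risk-averse ones (SD, n = 9 each, exact permutation p = 0.0136). The ambiguous share, of reads overlapping more than 1 gene, was 0.719% ± 0.0331 against 0.655% ± 0.0417 (exact p = 0.00354). In NAc the ambiguous share was 0.741% ± 0.0238 against 0.690% ± 0.0370 (exact p = 0.00321), and the unassigned share 25.7% ± 1.02 against 27.6% ± 2.61 (exact p = 0.0535). The not-unique share, of reads without a unique alignment, was 13.46% against 12.94% in PFC (exact p = 0.0161). In NAc it was 12.82% against 12.5% (exact p = 0.0442, adjusted p = 0.0531). Within preference groups the ambiguous share went with Vip in PFC at Pearson r = 0.71 over 18 libraries (permutation p = 0.00118) and Spearman's rho = 0.69, one of 16 such relations computed after the data were seen, with an adjusted p of 0.0189. Without the 2 libraries farthest from the median share, r was 0.62.

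Both PFC calls were lost when a read share entered the fit. With the unassigned share as a covariate the log2 fold changes were 0.18 for Sst and 0.28 for Vip (edgeR adjusted p = 0.278 and 0.127), and with the ambiguous share they were 0.11 and 0.09 (edgeR adjusted p = 0.81 and 0.825). They were also lost without the 4 libraries of highest unassigned share, those of rats B2, B3, BR9 and R7, at 0.19 for Sst and 0.24 for Vip (edgeR adjusted p = 0.319 and 0.218). With those libraries left out, 1 gene of all was called. When single libraries were left out, Vip stayed under the threshold in 18 of 18 fits. Sst passed it in 11 and missed it without B2, B3, N6 or R4 of the risk-averse group, or without B9, R1 or R6 of the risk-seeking group, with an adjusted p of at most 0.0729. Without the high risk-averse rat BR2, the log2 fold change of Sst was 0.34. The part of the read shares in these differences was not tested beyond these fits.

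**Figure D3:**
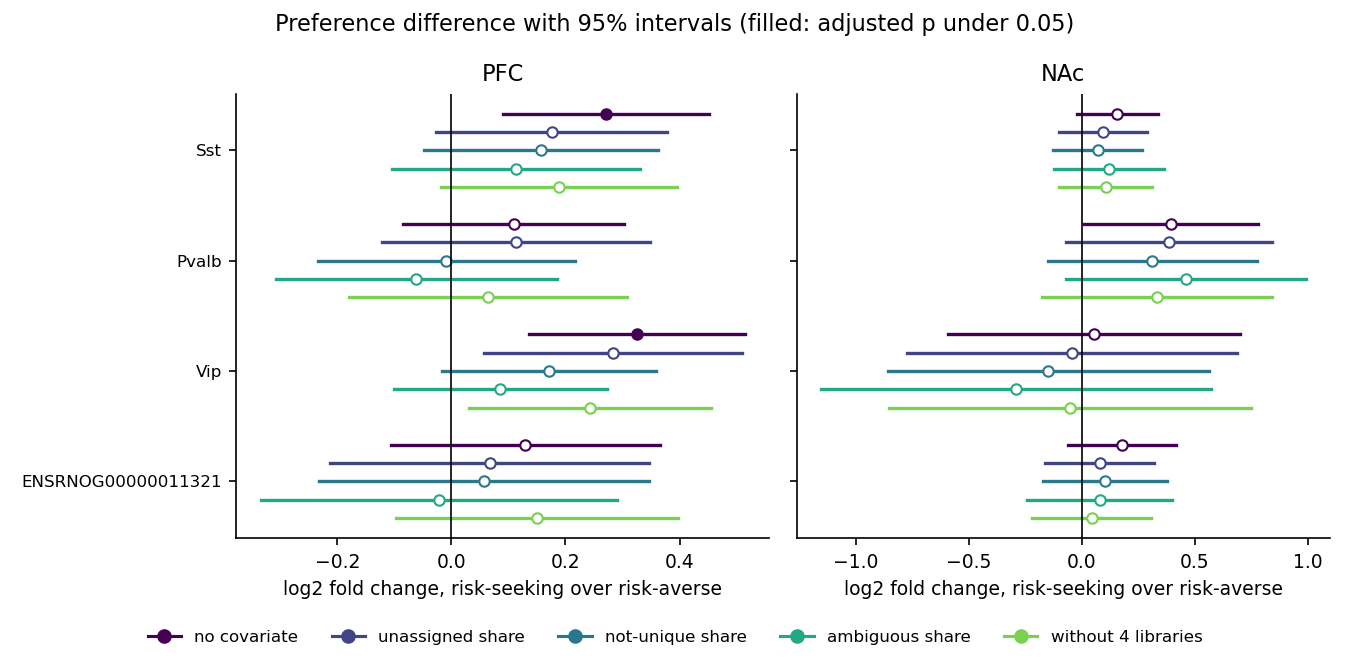
Log2 fold change of risk-seeking over risk-averse (x axis) with its 95% interval for each measured member in PFC and in NAc, without a covariate, with each of 3 read shares as a covariate, and without 4 libraries; filled points had an edgeR adjusted p under 0.05. The filled points are those of Sst and Vip in PFC without a covariate, and Vip moves closest to 0 with the ambiguous share.

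In NAc no member passed, and the test called 0 of 15418 genes, 0% in all, although 2748 had an unadjusted p under 0.05 and DESeq2 called 533 genes. Neither tool called a member. DESeq2 gave no adjusted p for Vip there. Pvalb had the widest difference of the 4, at 7.45 to 16.6 CPM in risk-averse rats, with a median of 10.1, and at 9.37 to 23.6 CPM in risk-seeking rats, with a median of 13.1. Above the highest risk-averse library lay 2 of 9 risk-seeking ones, rats B9 and R2. The log2 fold change was 0.39 ± 0.18, with an unadjusted p of 0.0448 and an edgeR adjusted p of 0.269, and 2.83% of genes had a larger absolute value. Sst was at 157 to 222 CPM in risk-averse and 166 to 268 CPM in risk-seeking rats, which overlapped widely, with a log2 fold change of 0.16 ± 0.09 (edgeR adjusted p = 0.348). Vip was at 0.946 to 4.00 and 0.648 to 4.10 CPM, with a log2 fold change of 0.06 ± 0.31 and a 95% interval of -0.59 to 0.70, an interval that takes in the PFC value of 0.33. ENSRNOG00000011321 had a log2 fold change of 0.18 ± 0.11 (edgeR adjusted p = 0.432).

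An interaction term asked whether the size of the preference difference was unequal in PFC and NAc, and it called 0% of 15936 genes (387 at an unadjusted p under 0.05, and 0 by DESeq2). With the rat as a replicate block it again called 0, with 1770 at an unadjusted p under 0.05, and the members had an adjusted p of at least 0.674. The PFC difference minus the NAc difference was 0.12 ± 0.13 for Sst, 0.29 ± 0.30 for Vip, -0.28 ± 0.21 for Pvalb and -0.04 ± 0.17 for ENSRNOG00000011321, on the log2 scale, each with an edgeR adjusted p of at least 0.981. A call in PFC and none in NAc therefore does not show that the regions differ. When 1 preference difference was fitted over both regions, with libraries of a rat kept together in limma-voom, Sst was higher in risk-seeking rats by 0.22 ± 0.08 (adjusted p = 0.039) and Vip by 0.34 ± 0.12 (adjusted p = 0.039). Pvalb, at 0.16 ± 0.12 (limma adjusted p = 0.389), and ENSRNOG00000011321, at 0.17 ± 0.10 (limma adjusted p = 0.251), did not pass. Both calls were lost with the unassigned share in the fit (limma adjusted p = 0.265 for Sst and 0.178 for Vip) and with the ambiguous share (0.982 for both). They were also lost without rats B2, B3, R7 and BR9, all of them risk-averse (limma adjusted p = 0.342 and 0.347). The call of Vip was also lost with RLE size factors (limma adjusted p = 0.0508). The fit called 22.3% of genes, with 12.3% called higher in risk-seeking rats, and it shares its PFC libraries with the comparison above.

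Sst and Vip went up and down together among the rats' PFC libraries. With the preference means removed, Pearson's r between their log2 CPM was 0.72 over 18 libraries (permutation p = 0.00063, adjusted p = 0.00756 over 12 relations), and Spearman's rho was 0.74 (p = 0.00057, adjusted p = 0.00684). In CPM, which keeps the preference difference, risk-averse rat B3 was lowest for both at 189 and 42.2, and risk-seeking rat R1 was highest for both at 360 and 90.6. With the preference means removed, B3 was again lowest for both, at -0.34 and -0.43 on the log2 scale. The highest were then rat BR2 for Sst, at 0.53, and rat R9 for Vip, at 0.34. Without the 2 libraries farthest from the median of Sst, r was 0.63. With the ambiguous share removed as well, r was 0.62 (adjusted p = 0.0358, and 0.0929 for rho). With RLE size factors, r was 0.69 (permutation adjusted p = 0.0154), and rho was 0.63 and missed the threshold (permutation adjusted p = 0.0726). Of the 13778 genes of at least 1 CPM in PFC, 213 had a higher r with Sst than Vip had. Pvalb had r = 0.04 with Sst in PFC (p = 0.865), rho = -0.05, and r = -0.06 without those 2 libraries.

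In NAc the pair was another one. Sst and Pvalb had r = 0.64 over 18 libraries (permutation p = 0.00486, adjusted p = 0.0292), while Spearman's rho of 0.59 had an adjusted p of 0.0674. Without the 2 libraries farthest from the median of Sst, r was 0.48. Rat B9 was highest for both, at 268 and 23.6 CPM. Only 22 of 13945 genes had a higher r with Sst there than Pvalb had. Sst and Vip had r = 0.37 in NAc (p = 0.135), rho = 0.28, and r = 0.25 without 2 libraries. The difference in r between regions was not tested. The other 8 relations among the 4 members had an adjusted p of at least 0.378 for r and at least 0.221 for rho.

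**Figure D4:**
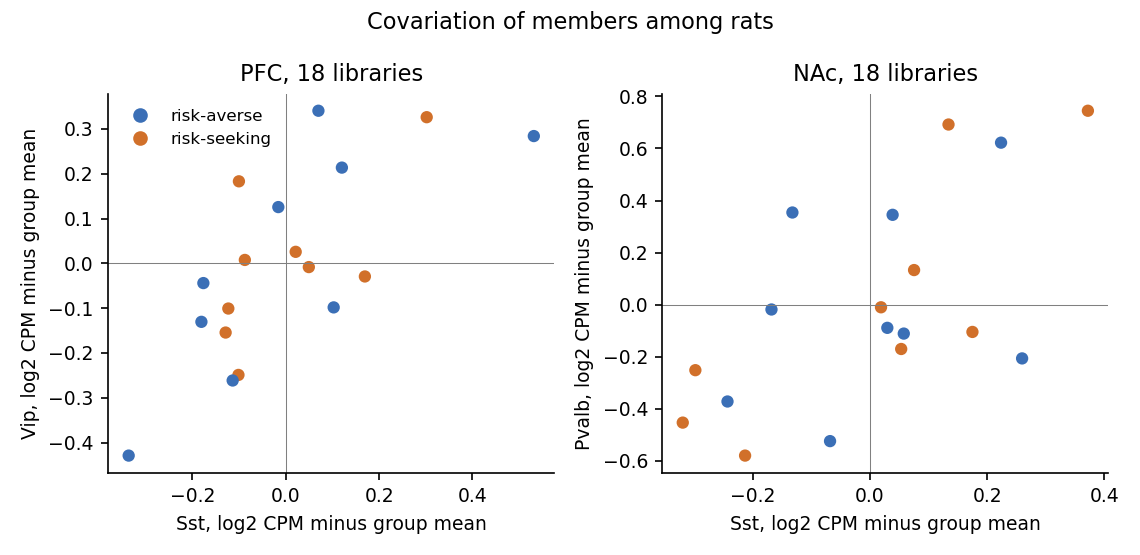
Log2 CPM minus the mean of the preference group for Sst (x axes) against Vip in 18 PFC libraries (left) and against Pvalb in 18 NAc libraries (right), coloured by preference. Both clouds rise from lower left to upper right, with r = 0.72 and r = 0.64, and a few libraries at each end carry part of the slope.

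The genes most like Sst by the same measure can be given by identifier alone. In PFC they were ENSRNOG00000013974, with r = 0.90 and a mean of 59.0 CPM, and ENSRNOG00000016567, with r = 0.87 and 3.42 CPM. In NAc they were ENSRNOG00000001055, with r = 0.76 and 39.1 CPM, and ENSRNOG00000023130, with r = 0.74 and 9.18 CPM. These r values are the highest over all genes of at least 1 CPM and are a description of 18 libraries.

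Ratios of 2 members within a library do not depend on how libraries are scaled. None of the 12 ratios, 6 pairs in each region, passed the threshold between the preference groups. The lowest exact permutation p was 0.113, for Pvalb to Vip in PFC, with an adjusted p of 0.675. The Sst to Vip ratio in PFC had a mean log2 of 2.02 ± 0.14 in risk-seeking and 2.07 ± 0.18 in risk-averse rats (SD, n = 9 each). Its difference of -0.05 had an exact p of 0.491.

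The trace of Vip in NAc varied more than any other member. Its coefficient of variation among 18 libraries was 46.8%, against 14.3% from counting error, and the highest library held 6.33 times the lowest. A sum of genes nearly confined to PFC moved with it. This sum was formed after the data were seen, from the 13 genes other than the members with at least 32-fold higher expression in PFC and at least 5 CPM there. It ranged from 3.68 to 21.3 CPM in NAc, against a PFC median of 734, so that NAc libraries held 0.502% to 2.91% of the PFC level. Rats R1 and B2, lowest in this sum at 3.69 and 3.68 CPM, were also lowest in Vip at 0.648 and 0.946 CPM. The highest sums, of 21.3, 19.4 and 18.6 CPM in rats N7, B3 and R2, came with Vip of 4.00, 2.88 and 4.10 CPM.

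Over the 18 NAc libraries, with preference means removed, r between Vip and this sum was 0.88 and Spearman's rho was 0.89, each with a permutation p of 1e-05, the smallest that 100000 resamples give, and 4e-05 after adjustment over 4 members. Without the 2 libraries farthest from the median sum, r was 0.81. For the other members r was 0.29 for Sst (p = 0.24), 0.24 for Pvalb (p = 0.343) and -0.07 for ENSRNOG00000011321 (p = 0.774), with rho of 0.20, 0.35 and -0.22. Without those 2 libraries their r was -0.02, 0.33 and -0.17. The summed genes were picked for being nearly confined to PFC, a trait close to that of Vip and absent from these other members. The contrast with them therefore cannot set Vip apart from other genes of that kind. How many such genes had as high an r with the sum was not counted, so the p-values for Vip do not single it out. The sum did not differ with preference (exact p = 0.872). With it as a covariate, the standard error of the NAc preference difference of Vip went from 0.31 to 0.16 and the difference was 0.06 (edgeR adjusted p = 0.874). The part of these genes in the level of Vip in NAc was not tested.

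**Figure D5:**
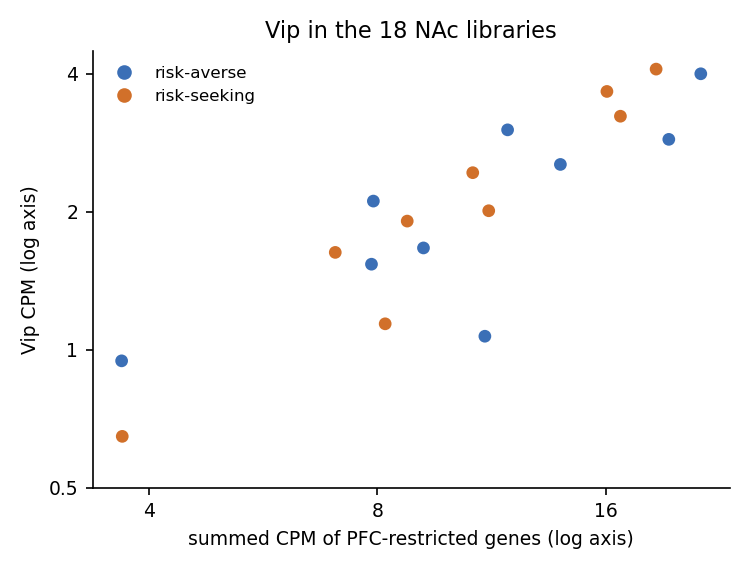
Vip CPM against the summed CPM of 13 genes nearly confined to PFC, both on log axes, in the 18 NAc libraries coloured by preference. Vip climbs with the sum from 0.648 CPM in rat R1 to 4.10 CPM in rat R2, and both preferences are spread along the whole range.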

How the data were processed

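The 36 libraries hold RNA of PFC and NAc from 19 rats. TruSeq libraries were read as 101-bp pairs, per the labels' protocols. Per the submitters' processing notes, the tools were Trimmomatic, STAR 2.5.3a, HTSeq 0.9.0 and edgeR, and the builds Rnor_6.0 and rn6. Which annotation release and strand option served for counting is not given in the sources used here: overlapping and antisense genes cannot be told apart. The authors deposited raw counts per Ensembl identifier, with no normalisation. The 5 HTSeq summary lines of each file stayed out of library sizes and tests and gave the read shares: unassigned as a percent of unassigned, gene and ambiguous counts, ambiguous of gene and ambiguous counts, and not-unique of all.

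Genes passing filterByExpr were TMM-scaled and tested with edgeR 4.0.16 (glmQLFit, robust) in R 4.3.3, within a region for preference and over all libraries for region and interaction. The fit over both regions used limma 3.58.1 (voom, duplicateCorrelation over rats, 0.395). Adjusted p are Benjamini-Hochberg, with 0.05 as the threshold. Those of the gene fits are over all genes tested, and those of correlations, ratios and read shares over the relations of their kind. Correlations used log2 CPM (prior count 2), group means removed, with coefficients from SciPy 1.17.1 and permutations drawn with NumPy 2.4.6. Alternatives were DESeq2 1.42.0, other scalings and filters, covariates, a replicate block and libraries left out. The tests were checked on simulated counts.

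The genes named are the 5 members and the 2 identifiers most like Sst in each region. The members and lists were chosen with earlier results of these data known. The sum of PFC genes and the relations to read shares were added after the data were seen. Rats pair the regions by title: same-rat deviations correlated at 0.129 to 0.550 over 13994 genes in 17 rats. In 16 of the 17, the NAc library correlated best with the PFC library of the same rat. Within groups, counts of 2 libraries had a chi-square per degree of freedom of 6.62 to 42.2, and none was counted as a repeat.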

Additional observations from a re-analysis of the deposited data

Results flagged for a closer look

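Among the members, 2 values stood apart from the other 8 libraries of their group by Dixon's test at the 95% level, among 16 groups of 9 tested (4 members in 4 groups), of which chance alone would give 0.8. Sst in PFC of risk-averse rat BR2 was at 345.3 CPM, against 189.1 to 259.6 CPM in the others. ENSRNOG00000011321 in PFC of risk-averse rat BR9 was at 12.06 CPM, against 6.235 to 8.919 CPM in the others.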

How the results depend on the processing

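Of 355 values of members under alternatives (fold changes, correlations and ratios), 316 kept their direction and side of the threshold, 23 lost a call and 16 changed sign. A value without a call was counted as kept when its sign held, as was Vip in NAc by DESeq2, which had no adjusted p. All 23 lost calls were preference calls of Sst and Vip, in PFC or over both regions. Of 79 counts of genes called, 69 were within 1.5 times the reported count and 10 were not. In PFC, preference calls among all genes went from 3521 to 334 with the unassigned share as a covariate, 0 after adding the ambiguous share, 1 for the not-unique one and 1 without the 4 libraries of highest unassigned share; leaving out single libraries gave 2264 (without rat B3) to 4227. Over both regions the 3561 calls became 1486, 0 and 7 with the unassigned share, the ambiguous share and without 4 rats. In NAc, DESeq2 called 533 genes, and leaving out single libraries gave 0 to 944, the latter without rat R9. The cause was not tested. For Sst in PFC the log2 fold change lost its call at 0.18 (unassigned share), 0.11 (ambiguous share), 0.16 (not-unique share) and 0.19 (without 4 libraries), and ranged from 0.22 to 0.34 without single libraries. For Vip in PFC it did so at 0.28, 0.085, 0.17 and 0.24 in the same order, and at 0.33 with all 36 libraries in 1 fit. Over both regions the calls of Sst were lost at 0.14, 0.13 and 0.15 with the unassigned share, the ambiguous share and without 4 rats, and those of Vip at 0.28, 0.10 and 0.23, and at 0.32 with RLE size factors (limma adjusted p = 0.0508). Uncalled values changed sign: Pvalb in PFC to -0.061 (ambiguous share) and -0.0092 (not-unique share), ENSRNOG00000011321 in PFC to -0.022 (ambiguous share), and Vip in NAc to -0.016 (limma-voom), -0.044 (unassigned share), -0.29 (ambiguous share), -0.15 (not-unique share), -0.054 (without 4 libraries) and, without single libraries, to between -0.086 and 0.22. The r of Sst and Pvalb in PFC became -0.011 with RLE factors and -0.24 with the ambiguous share removed. In the comparison of PFC with NAc, all 4 measured members kept their region calls with the rat as a replicate block. Their log2 fold changes toward PFC were then 0.42 for Sst, 2.12 for Pvalb, 4.88 for Vip and 0.27 for ENSRNOG00000011321. No interaction was called with that block. For 37 genes of at least 16-fold, the r of Vip with the summed PFC genes in NAc was 0.92. That list holds all 13 genes of the first sum and comes from the same libraries, so it is not a separate test. For the 13 genes, r was 0.88 with RLE factors and 0.88 with the unassigned share removed. Vip in NAc had the lowest depth of the measured members, with 20 to 135 counts per library.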
